A study of Nothobranchius furzeri with 19 samples.

Results

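In the turquoise killifish *Nothobranchius furzeri*, 59 genes had more transcript in every male library than in any female library at each of 3 early stages, and they are described here across the series. They were selected from a count table of 26740 genes on CPM, the count of a gene per 1000000 counts of its library. A gene was taken where its mean reached 0.5 CPM over the 17 early libraries and where, within each stage, its lowest male CPM lay above its highest female CPM. Of the 21027 genes at this floor, 59 met the rule, which is 0.281%. Their male and female values at the 3 early stages chose them and are therefore given as a description, without a test.

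RNA-seq was measured in males and females of the inbred strain GRZ, with 3 male and 3 female libraries of whole embryos at 10 days post fertilization (dpf), 3 male and 2 female libraries of trunks at hatching (0 days post hatching, dph), and 3 male and 3 female libraries of trunks at 3 dph. Adult gonads of 3 months were represented by 1 testis and 1 ovary library. No group carried a treatment or a transgene per the labels. The labels do not state whether replicate libraries came from separate animals or pools, so the p-values below measure only the spread between these libraries.

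Males of this species carry an X and a Y chromosome and females carry a pair of X chromosomes. The sexes part at a growth factor gene of the bone morphogenetic protein family, *gdf6*, whose Y-chromosomal allele *gdf6Y* directs development of the testis. A transcript that is higher in young males can come from cells of the early gonad, from genes of the sex chromosomes active in any tissue, or from other differences between the animals sampled. In bulk libraries, more cells of a type and more RNA per cell cannot be told apart.

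Total counts were 15563687 to 19943569 at 10 dpf, 17324478 to 20218857 at 0 dph, 25600939 to 31493908 at 3 dph, 11717979 in the testis and 25875516 in the ovary. The gonad labels were checked against *sybu*, an oocyte transcript in fish, which had 1.62 CPM in the testis and 585 CPM in the ovary. The germ cell gene *tdrd6* had 569 CPM in the testis and 168 CPM in the ovary. At 0 dph it had 4.04 to 8.54 CPM in male trunks and 14.2 to 45.0 CPM in female trunks. At 3 dph it had 3.81 to 8.44 CPM in males and 52.7 to 62.2 CPM in females. Gene symbols were available for 17 of the 59 genes, and the others are named by their identifier only.

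At a single stage the same separation was more common. Males lay above females in 3.97% of genes at 10 dpf, 6.56% at 0 dph and 10.9% at 3 dph. Females lay above males in 11.4%, 25.8% and 23% of genes at these stages, and 98 genes (0.466%) were female-higher at all 3. The median log2 ratio, male over female, across all genes was -0.03 at 10 dpf, -0.21 at 0 dph and 0.03 at 3 dph when libraries were scaled by their totals. With median-of-ratios scaling these medians were 0.08, -0.01 and 0.18, so the rule then found 125 male-higher and 46 female-higher genes. With trimmed-mean (TMM) scaling it found 98 male-higher and 46 female-higher genes. Of the 59 genes, 55 met the rule under median-of-ratios scaling and 47 under TMM scaling.

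The sex gap was small for most of the 59 genes and large for a minority. The median log2 ratio of the male to the female mean was 0.24 at 10 dpf, 0.44 at 0 dph and 0.20 at 3 dph (1.18-fold, 1.36-fold and 1.15-fold). The highest values were 7.57, 4.70 and 7.56, and the lowest were 0.16, 0.09 and 0.09. Male means were at least 2-fold above female means for 13 genes at 10 dpf, 11 at 0 dph and 12 at 3 dph. For 0 dph, 1 gene without female counts is left out of these values. The lowest male was at least 2-fold above the highest female for 5, 8 and 9 genes at the 3 stages. The shares of all genes at these 2-fold margins were not counted, so these numbers only describe the 59. Among the 58 genes with a ratio at every stage, 45 had their largest ratio at 0 dph, the stage with only 2 female libraries, and 38 their smallest at 3 dph.

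The genes formed 2 size classes, a division chosen after the values were seen. In 17 genes the male mean was at least 1.6-fold above the female mean at one stage or more, and in 42 genes it was not at any stage. The nearest genes on each side of this division were *trmt11*, with a largest log2 ratio of 0.84, and Nfu_g_1_003287, with 0.62. The value of *trmt11* comes from 10 dpf and is 0.37 without the highest male library, which leaves 0.69 at 0 dph as its largest ratio, close above the division at 0.68. The 17 genes had mean levels of 0.585 to 83.2 CPM (median 7.20), and the 42 genes had 8.52 to 3834 CPM (median 1726). CPM is not corrected for gene length, so these levels do not rank transcript abundance between genes. All 17 genes of the first class met the rule under both other scalings, against 38 of the 42 under median-of-ratios and 30 of the 42 under TMM scaling.

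**Figure D1:**
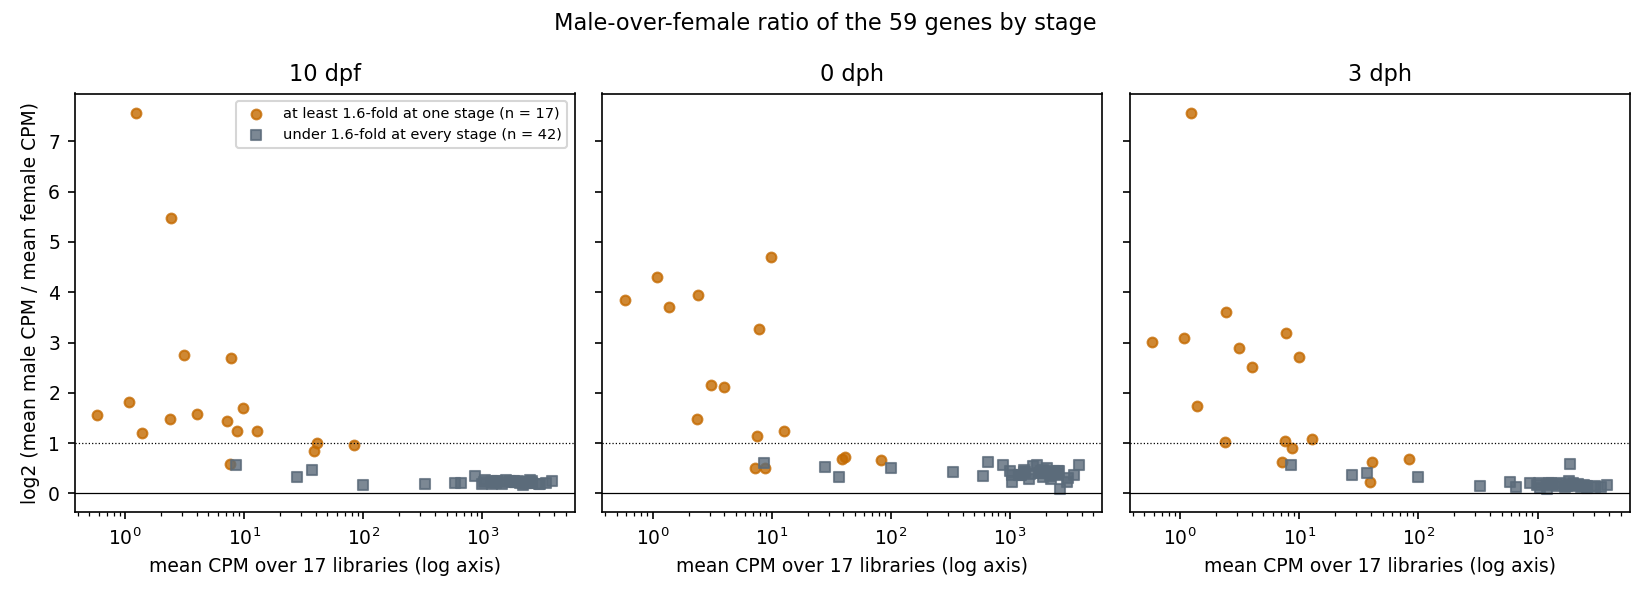
Log2 ratio of the mean male to the mean female CPM (vertical axis) against the mean CPM over the 17 early libraries (horizontal axis, log scale) for the 59 genes at 10 dpf, 0 dph and 3 dph. Circles are the 17 genes with a ratio of at least 1.6-fold at one stage, squares the 42 others, the dotted line marks 2-fold, and *si:dkey-11o15.10* is missing at 0 dph because both female libraries had 0 counts. The squares lie close above 0, with medians of 0.23, 0.41 and 0.16, while the circles have medians of 1.47, 1.80 and 1.74.

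A single gene was nearly absent from females. Nfu_g_1_015428, paired with the symbol *si:dkey-11o15.10*, had 3 counts or fewer in each of the 8 early female libraries. At 10 dpf it had 4.11, 3.82 and 2.25 CPM in males, from 82, 62 and 35 counts, against 0, 0.0534 and 0 CPM in females, from 0, 1 and 0 counts. At 0 dph it had 2.31, 0.75 and 1.14 CPM in males and 0 and 0 CPM in females. In larvae of 3 dph it had 1.61, 2.44 and 2.42 CPM in males and 0, 0.0343 and 0 CPM in females. Every male library thus held 13 counts or more, and no female library held more than 1. The ratio of the pooled CPM was 192 at 10 dpf (95% interval from counting error alone 34.0 to 7610) and 189 at 3 dph (33.5 to 7509). At 0 dph the level in males was at least 17.9-fold higher, when the females' 0 counts are set to 3 counts over the group, and the exact interval, which also covers the counting error of the males, had a lower limit of 14.3. The gene also had 21 counts in the testis (1.79 CPM) and 0 in the ovary, at least 15.5-fold higher in the testis by the same floor, with a lower limit of 11.5 for the exact interval.

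Nfu_g_1_002117, which has no symbol, had the widest gap that held at all 3 stages among the genes with counts in every group of females. The gap of Nfu_g_1_015428 was wider at 10 dpf and 3 dph, and at 0 dph only its lower bound of 2.13 log2 units can be given. At 10 dpf it had 4.56, 4.43 and 13.0 CPM in males and 0.103, 0.160 and 0.233 CPM in females. At 0 dph it had 3.64, 2.14 and 1.84 CPM in males and 0.229 and 0.0989 CPM in females. At 3 dph it had 2.33, 3.46 and 3.83 CPM in males and 0.209, 0.240 and 0.335 CPM in females. The sexes were far apart throughout, and the smallest gap, between the lowest male and the highest female, was 2.80 on the log2 scale. The pooled ratio was 43.5 at 10 dpf (22.7 to 96.0), 16.1 at 0 dph (7.23 to 44.7) and 12.2 at 3 dph (7.94 to 19.5), with intervals for counting error only. The third 10 dpf male was clearly higher than the other two.

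A pair of genes with zebrafish clone-based symbols, whose functions are not given here, were expressed in both sexes at clearly different levels. Nfu_g_1_014802 (*si:ch211-233b23.4*) had 13.6, 19.8 and 26.5 CPM in males and 2.57, 2.57 and 4.19 CPM in females at 10 dpf. It had 13.9, 12.4 and 13.3 CPM in males and 1.09 and 1.63 CPM in females at 0 dph. It had 5.49, 6.41 and 6.95 CPM in males and 0.766, 0.687 and 0.604 CPM in females at 3 dph. The male means were 2.69, 3.28 and 3.20 log2 units above the female means at the 3 stages. Nfu_g_1_005006 (*si:ch211-208f21.5*) had 9.33, 10.5 and 7.39 CPM in males and 1.13, 1.6 and 1.28 CPM in females at 10 dpf. At 0 dph it had 3.28, 3.41 and 3.95 CPM in males and 1.20 and 0.396 CPM in females. At 3 dph its levels were 2.44, 2.73 and 3.24 CPM in males and 0.418, 0.515 and 0.201 CPM in females. Among the early libraries both genes had their highest value in a 10 dpf male and their lowest in a 3 dph female.

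*gsg1l*, which encodes a claudin-family membrane protein known in mammals as an auxiliary subunit of AMPA-type glutamate receptors, had a log2 ratio that was larger at each later stage. It had 4.56, 6.59 and 4.43 CPM in males and 1.75, 1.98 and 1.51 CPM in females at 10 dpf. It had 4.72, 2.37 and 2.70 CPM in males and 0.515 and 0.989 CPM in females at 0 dph. It had 9.54, 10.6 and 10.4 CPM in males and 1.74, 1.75 and 1.84 CPM in females at 3 dph. The 3 dph replicates of each sex were close together, and the log2 ratios were 1.57, 2.12 and 2.51. Nfu_g_1_012184, without a symbol, had its lowest female values at 0 and 3 dph. At 10 dpf it had 2.56, 3.02 and 1.48 CPM in males and 0.770, 0.641 and 0.581 CPM in females. At 0 dph it had 1.38, 2.94 and 2.22 CPM in males and 0.172 and 0.0495 CPM in females, from 3 and 1 counts. Its 3 dph levels were 0.858, 0.953 and 0.508 CPM in males and 0.139, 0 and 0.134 CPM in females. These are the 6 genes with the largest gap that held at all stages, and their smallest gaps ran from 2.80 to 0.94 on the log2 scale.

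**Figure D2:**
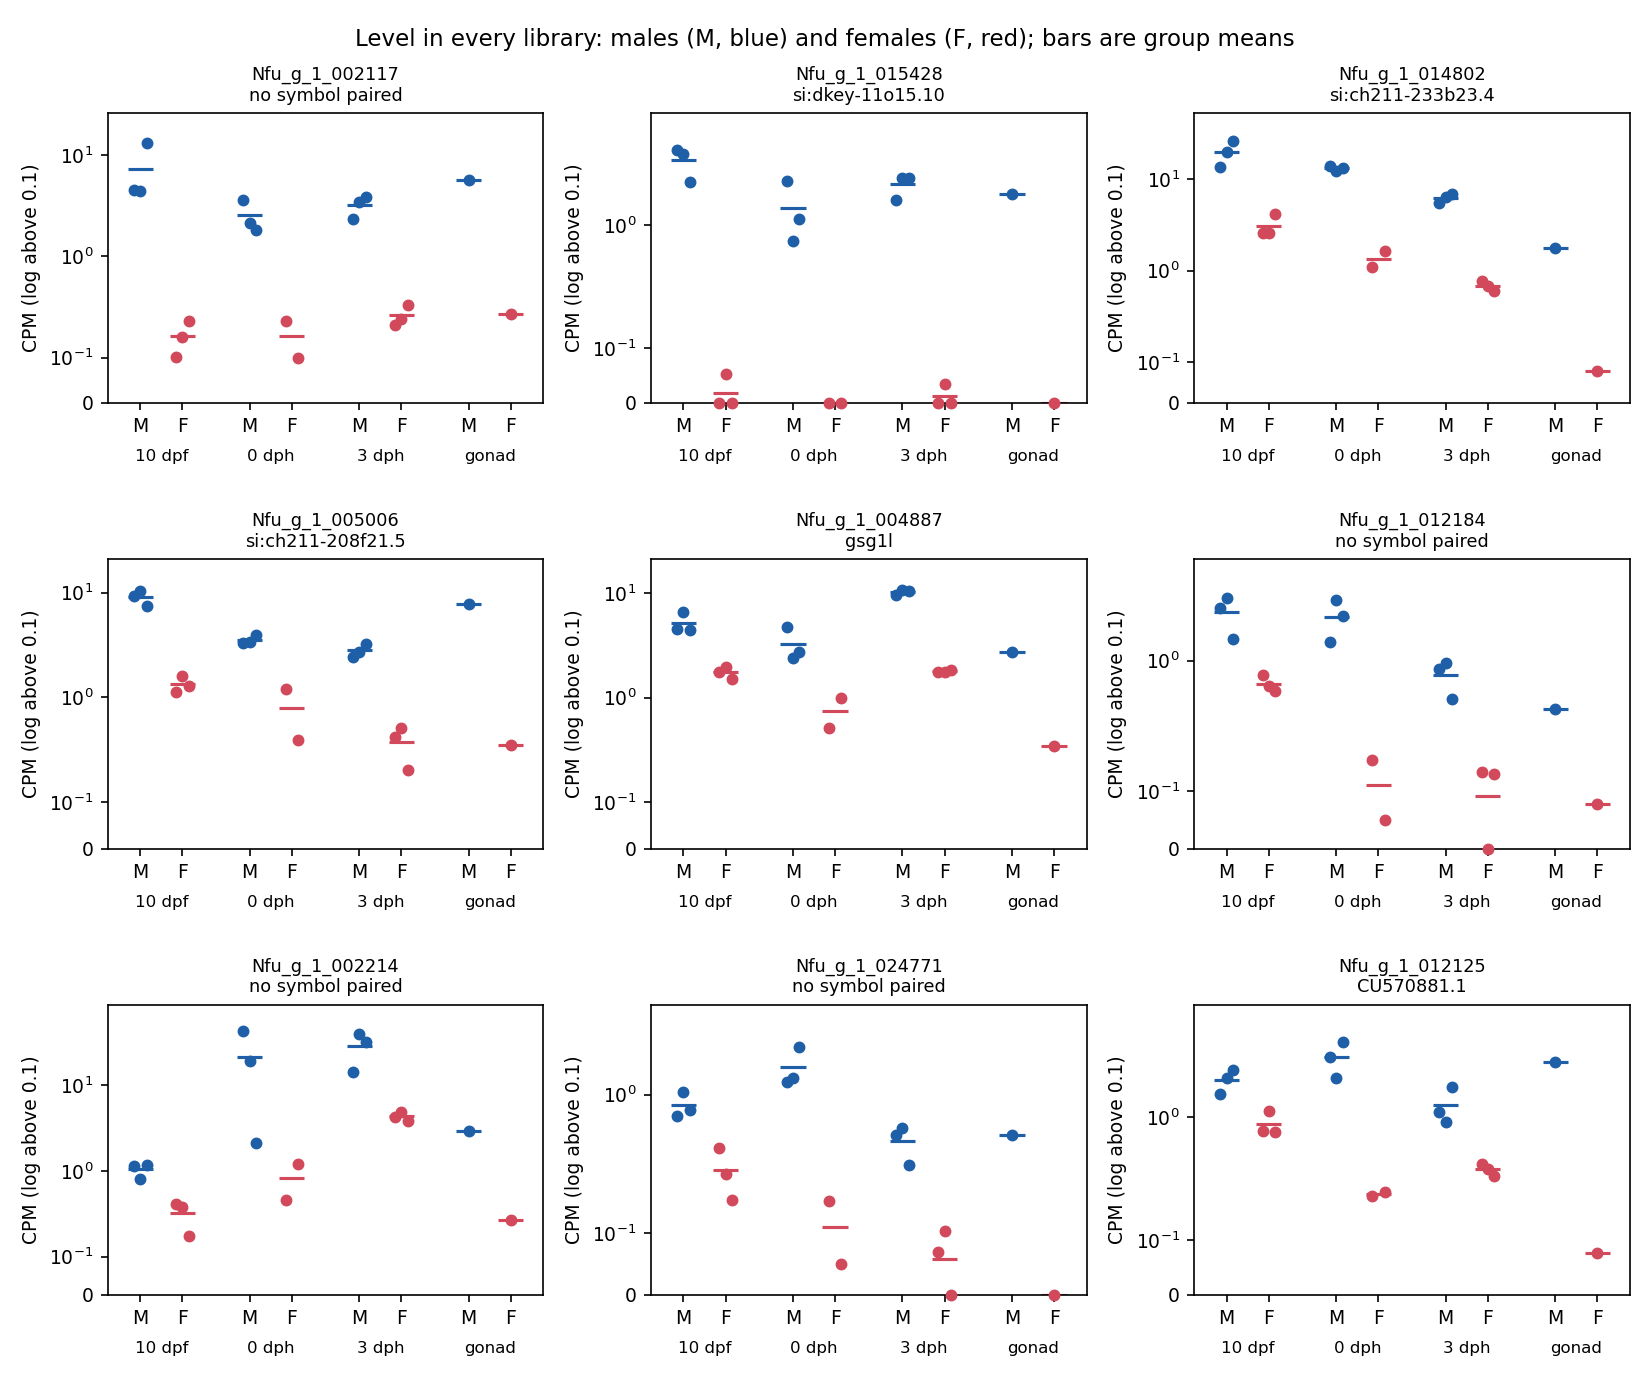
CPM in every library (points; vertical axis logarithmic above 0.1 and linear below) of the 9 genes whose smallest gap over the 3 early stages was widest, with males in blue left of females in red at 10 dpf, 0 dph, 3 dph and in the adult gonads, where male is testis and female is ovary. Bars are group means (n = 3 each, except 2 females at 0 dph and 1 library per gonad). No female point reaches the lowest male point of its stage, and Nfu_g_1_015428 lies at or near 0 in all females.

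The remaining genes of the larger class that carry a known symbol encode epithelial, lipid transfer and RNA-modifying proteins. *pctp*, the phosphatidylcholine transfer protein, had 3.66, 5.54 and 5.20 CPM in males and 1.59, 2.03 and 1.57 CPM in females at 10 dpf. It had 2.31, 1.5 and 2.11 CPM in males and 0.915 and 0.495 CPM in females at 0 dph, and 2.30, 2.79 and 3.79 CPM in males and 1.36, 1.72 and 1.31 CPM in females at 3 dph. All its log2 ratios, 1.47, 1.48 and 1.02, were above 1.

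*cdh17*, a cadherin of the intestinal epithelium in mammals, had 17.4, 8.99 and 8.93 CPM in males and 4.47, 6.63 and 6.98 CPM in females at 10 dpf. It had 153, 219 and 204 CPM in males and 115 and 127 CPM in females at 0 dph, and 104, 92.2 and 138 CPM in males and 79.0, 60.9 and 68.9 CPM in females at 3 dph. *pdzd3b*, whose mammalian counterpart is a scaffold protein of intestinal and renal brush borders, had 9.43, 3.39 and 3.28 CPM in males and 2.77, 2.67 and 2.62 CPM in females at 10 dpf. It had 91.7, 110 and 126 CPM in males and 55.8 and 76.7 CPM in females at 0 dph, and 42.8, 32.4 and 56.0 CPM in males and 24.9, 30.5 and 29.4 CPM in females at 3 dph. In both genes the first 10 dpf male was the high one and the other 2 males lay close above the females. Their log2 ratios at 10 dpf, 0.97 for *cdh17* and 1.0 for *pdzd3b*, were 0.57 and 0.31 without that library. For *cdh17* this leaves 0.679 at 3 dph as its largest ratio, barely above the size division at 0.678.

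*trmt11*, the catalytic subunit of a tRNA guanosine methyltransferase in yeast and human, had 31.3, 35.8 and 72.3 CPM in males and 24.7, 24.9 and 28.5 CPM in females at 10 dpf. It had 61.2, 49.2 and 56.3 CPM in males and 36.1 and 32.7 CPM in females at 0 dph. It had 34.4, 36.4 and 40.8 CPM in males and 30.1, 33.7 and 31.8 CPM in females at 3 dph, where the lowest male and the highest female were only 0.03 log2 units apart. Nfu_g_1_002214 varied widely among hatchling males, with 42.8, 19.3 and 2.11 CPM in males and 0.457 and 1.19 CPM in females at 0 dph. At 10 dpf it had 1.15, 0.800 and 1.16 CPM in males and 0.411, 0.374 and 0.174 CPM in females, and at 3 dph 14.1, 39.1 and 31.4 CPM in males and 4.21, 4.84 and 3.86 CPM in females. The third 0 dph male was thus nearer to the females than to the other 2 males.

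Nfu_g_1_024771 was the gene closest above the level floor, with a mean of 0.585 CPM. It had 0.702, 1.05 and 0.771 CPM in males and 0.411, 0.267 and 0.174 CPM in females at 10 dpf, and 1.23, 1.33 and 2.22 CPM in males and 0.172 and 0.0495 CPM in females at 0 dph. At 3 dph it had 0.515, 0.572 and 0.312 CPM in males and 0.0697, 0.103 and 0 CPM in females. The next gene above the floor was Nfu_g_1_012184 at 1.08 CPM, and the separated genes just below it were Nfu_g_1_019311 at 0.362 CPM and Nfu_g_1_016053 at 0.10 CPM. On separation, the genes just inside the rule were Nfu_g_1_016379 and Nfu_g_1_010381, with smallest gaps of 3.86e-05 and 0.00198 log2 units, and those just outside were Nfu_g_1_007520 and Nfu_g_1_015905, with -0.000318 and -0.00186. Of the other 5 genes of the larger class, Nfu_g_1_007814 is described with the gonads and Nfu_g_1_007401 with the change with age. The remaining 3 were Nfu_g_1_012125 (paired with CU570881.1), with log2 ratios of 1.20, 3.70 and 1.74 at 10 dpf, 0 dph and 3 dph, Nfu_g_1_020382 (CU457778.1), with 0.59, 1.14 and 1.03, and Nfu_g_1_009680, with 1.44, 0.50 and 0.62. The smallest gaps of the smaller class ran from 3.86e-05 to 0.089 log2 units (median 0.020) and those of the larger class from 0.010 to 2.80 (median 0.47). The classes thus overlapped near the limit of separation, where Nfu_g_1_007401 and Nfu_g_1_007814 of the larger class had smallest gaps of 0.010 and 0.014.

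The 42 genes of the smaller class were mostly abundant transcripts, and all 4 members paired with a ribosomal protein symbol were among them. *rpl5b*, a protein of the large ribosomal subunit, had 3256, 2806 and 3253 CPM in males and 2705, 2633 and 2683 CPM in females at 10 dpf. At 0 dph *rpl5b* had 6016, 5526 and 5119 CPM in males and 4398 and 4232 CPM in females, and at 3 dph 2607, 2732 and 2750.1 CPM in males and 2464, 2393 and 2571 CPM in females. The sexes did not overlap, but their distance, 0.02 log2 units at 3 dph between the lowest male and the highest female, was smaller than the range within either sex. The log2 ratios of the means at 10 dpf, 0 dph and 3 dph were 0.22, 0.36 and 0.12 for *rpl5b*, 0.16, 0.28 and 0.17 for *rps9* of the small subunit, 0.23, 0.41 and 0.15 for *rpl18* and 0.19, 0.45 and 0.17 for *rpl36*. *nme2b.2*, a nucleoside diphosphate kinase gene, had 0.27, 0.23 and 0.10. Over the whole class the log2 ratios lay between 0.16 and 0.56 in embryos, between 0.09 and 0.62 in hatchlings and between 0.09 and 0.58 in larvae of 3 dph, and no gene had its lowest male 2-fold above its highest female.

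Ribosomal protein genes were therefore looked up beyond the 59, with a list made after these symbols were seen. Of 8 genes paired with such a symbol, 4 are members, whose direction the rule fixed. In the 4 others the male mean was above the female mean at every stage, with median log2 ratios of 0.25, 0.41 and 0.15. Of all genes with counts in both sexes, the male mean was above in 45.9%, 30.6% and 52.9% at these stages. Males lay above all females in 2 of these 4 at 10 dpf, in 4 at 0 dph and in 0 at 3 dph. Of all genes, 3.97%, 6.56% and 10.9% were separated in this direction at these stages. The summed level of all 8 is only a description, because the rule chose 4 of them as male-higher at every stage. At 10 dpf the sum was 12121 to 14863 CPM in males and 11414 to 11641 CPM in females. At 0 dph it was 21360 to 27043 CPM in males and 17897 to 18247 CPM in females. At 3 dph it was 12518 to 14035 CPM in males and 11403 to 12388 CPM in females.

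Genes of the smaller class were high in the same libraries. Among the 3 males of a stage, the third replicate was the highest for 27 of the 42 genes at 10 dpf, the first for 36 at 0 dph and the third for 35 at 3 dph. Among 3 dph females the third replicate was the highest for 36 and the second the lowest for 39. In the 17 genes of the larger class, the library that was most often highest in males was so for 7, 9 and 9 genes. The 59 genes together took 5.65% to 6.73% of all counts in males and 5.18% to 5.41% in females at 10 dpf. Their share was 9.97% to 12.6% in males and 8.42% to 8.44% in females at 0 dph. At 3 dph it was 6.00% to 6.42% in males and 5.26% to 5.65% in females. Under the rule these ranges cannot overlap, because every gene had all males above all females at each stage.

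Markers of cardiac muscle and red blood cells differed between the sexes at some stages. Of 3 listed symbols of steroid-producing cells only *cyp11c1* was paired, and its sums overlapped between the sexes at every stage. The cardiac myosin genes *vmhc* and *vmhcl*, 2 of 2 listed and neither at 0, summed to 52.3 to 138 CPM in males and 26.2 to 49.3 CPM in females at 10 dpf. They summed to 47.0 to 152 CPM in males and 96.3 to 225 CPM in females at 0 dph, and to 111 to 177 CPM in males and 105 to 167 CPM in females at 3 dph. Both identifiers paired with the embryonic globin *hbbe1.1*, neither at 0, summed to 21.5 to 197 CPM in males and 16.3 to 33.1 CPM in females at 10 dpf. They summed to 8.14 to 25.7 CPM in males and 29.3 to 101 CPM in females at 0 dph, and to 741 to 1708 CPM in males and 437 to 880 CPM in females at 3 dph. The sums of the sexes were thus apart in cardiac markers at 10 dpf and in globin at 0 dph, in opposite directions, and overlapped elsewhere. Taken singly, *vmhc* was also apart at 0 dph, with 13.7 to 18.8 CPM in males and 33.8 to 39.8 CPM in females, and the globin identifier Nfu_g_1_007507 at 10 dpf, with 1.35 to 7.47 CPM in males and 0.407 to 1.18 CPM in females. The identifiers paired with *cyp11c1*, a gene of steroid-producing cells, summed to 0.450 to 2.96 CPM in males and 1.22 to 2.08 CPM in females at 10 dpf. Their sums were 0.595 to 9.58 CPM in males and 2.74 to 2.82 CPM in females at 0 dph. At 3 dph they were 2.81 to 8.54 CPM in males and 5.01 to 5.22 CPM in females. Over all genes, males lay above females in 3.97% at 10 dpf, and females above males in 25.8% at 0 dph. The part of tissue composition in the gaps of the 59 genes was not tested.

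Genes of gonadal sex and Gdf6 signalling were taken from a list of 27 symbols, of which 6 were paired with an identifier. Of these 6, 0 were among the 59. The other symbols, among them *gdf6*, *gdf6a* and *amh*, could not be looked up, and only 17 of the 59 genes carry a symbol. *id1* and *id3*, targets of bone morphogenetic protein signalling, had males above females at 10 dpf. *id1* had 125 to 136 CPM in males and 92.7 to 115 CPM in females, and *id3* 52.6 to 84.9 CPM in males and 41.6 to 50 CPM in females. At 0 dph their sexes overlapped, *id1* with 41.4 to 61.9 CPM in males and 51.1 to 62.5 CPM in females. At 3 dph *id1* had 40.7 to 45.0 CPM in males and 30.7 to 34.1 CPM in females. There *id3* overlapped, with 54.6 to 69.7 CPM in males and 49.5 to 57.1 CPM in females. *sox9a* overlapped between the sexes at all 3 stages, with log2 ratios of 0.54, -0.28 and 0.11. *smad9* overlapped at 10 dpf, with 0.0643 to 1.25 CPM in males and 0.374 to 1.08 CPM in females. At 0 dph *smad9* had 0.410 to 0.635 CPM in males and 0.841 to 1.03 CPM in females. At 3 dph it had 0.618 to 1.21 CPM in males and 0.418 to 0.481 CPM in females. The meiosis marker *rec8* and *sybu* had females above males at 0 and 3 dph, and *sybu* also at 10 dpf. At 3 dph *rec8* had 0.469 to 0.687 CPM in males and 3.55 to 8.60 CPM in females. *sybu* had 3.02 to 6.38 CPM in males and 55.2 to 59.2 CPM in females. Of the 6 genes, males lay above females in 2 at 10 dpf, 0 at 0 dph and 2 at 3 dph. Over all genes these shares were 3.97%, 6.56% and 10.9%. Females lay above males in 1, 3 and 2, against 11.4%, 25.8% and 23% of all genes.

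Positions were compared by symbol only, against RefSeq's genes of NfurGRZ-RIMD1, because the identifiers of the count table match none of its entries. This table places *gdf6a*, from an ancient form of which the paper derives the alleles *gdf6X* and *gdf6Y*, on one of its chromosomes. Of 6 members found there by symbol, 5 lay on the same chromosome as *gdf6a*: *rps9*, *rpl18*, *cdh17*, *gsg1l* and *pctp*. Only *rpl36* of these 6 did not. Among all 1388 genes at the level floor with a matched symbol the share was 18.2%. It was 22.5% of the 995 matched genes among the first 2000 identifiers and 7.38% of the 393 later ones. Symbols were read from a shortened list, and the cause of the difference between these shares was not tested. With 6 genes, 83.3% is a description of these genes and not of the 59.

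The adult gonads, which the rule did not use, were compared for the same 59 genes. Ratios are of CPM with 0.5 added, and 1 library per gonad allows no test. The testis was above the ovary in 49 of the 59 genes (83.1%), against 58.9% of all genes at the floor. The testis was at least 2-fold above the ovary in 17 of the 59 (28.8%), close to the 31% of all genes, whereas 0 genes were at least 2-fold higher in the ovary, against 18.8% of all genes. The median log2 ratio, testis over ovary, was 0.36 for the 59, 0.29 for all genes and -0.53 for the 98 female-higher genes. It remained 0.36 when the 2 genes with 0 ovary counts were set to their lower bounds. When the 2 gonad libraries were scaled by median of ratios, the testis was above the ovary in 24 of the 59 genes (40.7%), against 47.4% of all genes. The median of the 59 then turned to -0.17, against -0.05 for all genes, with 13 genes at least 2-fold higher in the testis and 2 in the ovary. Over all 19 libraries scaled together the testis was above in 34 genes (57.6%), against 52.8% of all genes, and the median was 0.09 for the 59 and for all genes, with 13 and 1 of the 59 at least 2-fold higher in the testis and in the ovary.

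The gonad values of the 2 size classes were unlike. In the larger class the testis was above the ovary in 16 of 17 genes and at least 2-fold so in 14, with a median log2 ratio of 1.93. Some of these rest on few reads. Testis and ovary counts were 1 and 1 for Nfu_g_1_007401 and 5 and 2 for Nfu_g_1_012184, both among the 16. They were 6 and 0 for Nfu_g_1_024771, among the 14. In the smaller class the testis was above the ovary in 33 of 42 and at least 2-fold so in 3, with a median of 0.21. Of all genes at the floor, 58.9% were higher in the testis and 31% at least 2-fold so. With median-of-ratios scaling of the gonads the testis was above in 16 of 17 genes of the larger class (median 1.54). It was above in only 8 of 42 of the smaller (median -0.34), so the direction of the smaller class depends on the scaling. In the larger class 11 genes were then at least 2-fold higher in the testis and 1 in the ovary. Of all 21027 genes, 4582 and 5650 were so. With 2 CPM added instead of 0.5, 10 genes of the larger class were at least 2-fold higher in the testis. With 0.5 CPM added, Nfu_g_1_007814 (*si:ch211-212k5.3*) had the highest log2 ratio, 4.28, with 27.1 CPM in the testis and 0.928 CPM in the ovary, a ratio of 29.3 without the addition (19.3 to 46.3, counting error only). Next on the same scale were Nfu_g_1_005006, with 7.85 CPM in the testis and 0.348 CPM in the ovary (ratio 22.6, 11.4 to 50.9), and Nfu_g_1_002117, with 5.72 CPM in the testis and 0.271 CPM in the ovary (ratio 21.1, 9.71 to 54.6). Without the addition, ratios of 36.4 for Nfu_g_1_012125 (9.32 to 313) and 23.2 for Nfu_g_1_014802 (5.67 to 204) rest on 2 ovary counts each, and those of Nfu_g_1_015428 and Nfu_g_1_024771 have no upper limit because the ovary had 0 counts, so the intervals overlap and set no order. *gsg1l* had 2.73 CPM in the testis and 0.348 CPM in the ovary, *cdh17* 2.82 CPM and 0.386 CPM, *pctp* 2.65 CPM and 0.928 CPM, and *pdzd3b* 53.5 CPM and 23.9 CPM. Nfu_g_1_012125 and Nfu_g_1_019293, which share the symbol CU570881.1 and fall into different size classes, had 2.82 and 6.91 CPM in the testis and 0.0773 and 1.20 CPM in the ovary, and reads of such copies may be split between them. At these depths *gsg1l* rests on 32 testis and 9 ovary counts and *cdh17* on 33 and 10.

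The early gap and the gonad gap of Nfu_g_1_007814 differed in size. Its embryos had 16.2, 19 and 25.5 CPM in males and 7.49, 9.57 and 8.55 CPM in females, but at 0 dph it had 6.87, 5.19 and 5.41 CPM in males and 3.09 and 5.14 CPM in females, and the lowest male was 0.014 log2 units above the highest female. At the other end, *trmt11* was the only gene of the larger class that was lower in the testis, with 18.5 CPM in the testis and 33.4 CPM in the ovary, a ratio of 0.554 (0.475 to 0.644). Nfu_g_1_009930 had 6.06 CPM in the testis and 9.70 CPM in the ovary (ratio 0.625, 0.473 to 0.816), and Nfu_g_1_015364 had 541 CPM in the testis and 696 CPM in the ovary (ratio 0.777, 0.755 to 0.799). Log2 ratios of *rpl36* and *rpl18* were 0.65 and 0.64, and those of *rpl5b* and *rps9* were 0.18 and 0.20. The direction of *rpl5b* and *rps9* turned when the gonads were scaled by median of ratios, to -0.37 and -0.35.

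**Figure D3:**
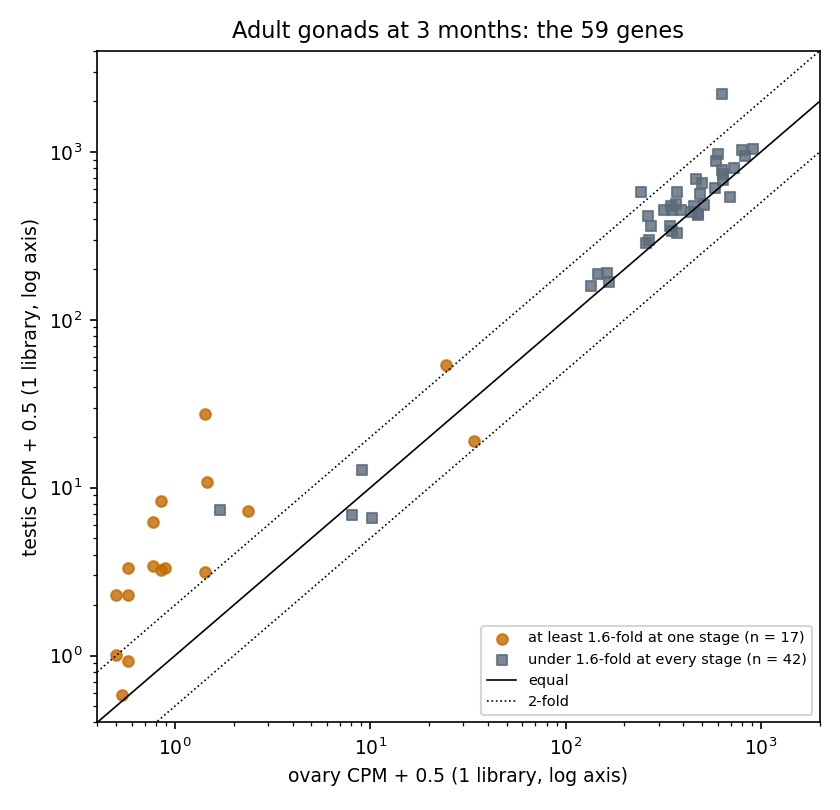
Testis CPM (vertical) against ovary CPM (horizontal), each with 0.5 added and on a log axis, for the 59 genes in the 2 adult gonad libraries. Circles are the 17 genes of the larger class and squares the 42 of the smaller class, with lines for equal level and for 2-fold in either direction. Most circles lie above the upper 2-fold line (14 of 17), most squares lie between the 2-fold lines, and no gene lies beyond the lower one.

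The trunk libraries also allowed a test of change with age, 3 dph over 0 dph, separately for males and females. The rule fixed the order of the sexes at both ages but not the change between ages, although it used the same libraries. High male values at 0 dph helped genes to meet the rule. Neither the male fall nor the amount by which it exceeds the female fall is therefore an independent result. The male counts and p-values below describe these genes. Genes of the smaller class were also high in the same libraries, so their calls are not separate observations. A DESeq2 fit over the 11 trunk libraries was used, with adjustment over all genes at an adjusted p of 0.05. In males 48 of the 59 genes fell and 1 rose, against 22.3% and 21.9% of all genes tested. In females 23 fell and 3 rose, against 17.7% and 20.4%. The median log2 fold change, 3 over 0 dph, was -0.75 in males and -0.34 in females, and over all genes it was -0.02 in males and 0.02 in females. The female count moved by over 1.5 times without female replicate 1 of 0 dph (16 genes), replicate 2 of 0 dph (14), replicate 1 of 3 dph (15) or replicate 2 of 3 dph (14). Depth and the share of counts in the 10 most abundant genes differed between the ages too, at 10.9% to 13.1% of counts at 0 dph and 20.4% to 29.5% at 3 dph, and their part was not tested.

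Abundant genes of the smaller class made up most of the fall. In that class 39 of 42 fell in males and 20 in females, and none rose. Of all genes tested, 22.3% fell in males and 17.7% in females. *rpl5b* fell by 0.96 ± 0.13 (SE) on the log2 scale in males (DESeq2, adjusted p = 1.36e-12) and by 0.55 ± 0.14 in females (adjusted p = 0.000909). In males *rpl36* fell by 0.82 ± 0.12 (adjusted p = 4.17e-10) and *rpl18* by 0.84 ± 0.15 (adjusted p = 3.44e-07), whereas *rps9* had -0.35 ± 0.16 and missed the threshold (adjusted p = 0.0539). In females *rpl36* fell by 0.36 ± 0.14 (adjusted p = 0.0273), a call lost in 7 of 15 alternative fits, among them those without either 0 dph female, without male replicate 3 of 3 dph or without female replicate 1 or 2 of 3 dph (adjusted p up to 0.142).

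In the larger class 1 gene rose and 9 fell in males, and 3 rose and 3 fell in females. Of all genes tested, 21.9% rose and 22.3% fell in males, and 20.4% rose and 17.7% fell in females. The female counts of the larger class were thus near the shares of all genes. *gsg1l* rose in both sexes, by 1.71 ± 0.28 in males (adjusted p = 1.7e-08) and by 1.46 ± 0.41 in females (adjusted p = 0.00186). The female call for *gsg1l* was lost without female replicate 1 of 0 dph (adjusted p = 0.101). In females *pctp* rose by 1.32 ± 0.42 (adjusted p = 0.00688) and Nfu_g_1_002214 by 2.60 ± 1.0 (adjusted p = 0.0274). The call for *pctp* was lost without female replicate 2 of 0 dph (adjusted p = 0.136), and that for Nfu_g_1_002214 with edgeR or without any of 4 female libraries, replicate 1 of 0 dph and replicates 1, 2 and 3 of 3 dph, with an adjusted p of up to 0.238.

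Nfu_g_1_007401 had the strongest fall. It had 23.4, 60.6 and 71.7 CPM in males and 23.2 and 20.7 CPM in females at 0 dph. At 3 dph it had 4.26, 2.70 and 3.59 CPM in males and 1.53, 1.72 and 1.74 CPM in females. All libraries of 3 dph lay below all libraries of 0 dph in each sex. It fell by 3.80 ± 0.37 in males (adjusted p = 1.05e-22) and by 3.47 ± 0.42 in females (adjusted p = 3.24e-14). At 10 dpf the gene was near 0, with 3, 2 and 2 counts in males and 0, 1 and 2 counts in females, so its separation there rests on single reads and on library totals. In the gonads it had 1 count in the testis and 1 in the ovary.

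Further falls in males were seen in Nfu_g_1_024771, by 1.69 ± 0.52 (adjusted p = 0.00405), in Nfu_g_1_012184, by 1.40 ± 0.49 (adjusted p = 0.0124), in *pdzd3b*, by 1.24 ± 0.25 (adjusted p = 6.22e-06), in Nfu_g_1_014802, by 1.0 ± 0.19 (adjusted p = 7.34e-07), and in *cdh17*, by 0.71 ± 0.23 (adjusted p = 0.00529). The male call for Nfu_g_1_012184 was lost with a replicate block and without male replicate 2 or 3 of 0 dph or replicate 3 of 3 dph, and that for Nfu_g_1_024771 without male replicate 3 of 0 dph, with adjusted p of up to 0.119 and of 0.0724. *pdzd3b* fell in females by 0.99 ± 0.28 (adjusted p = 0.00243), a call lost without female replicate 2 of 0 dph (adjusted p = 0.112). Nfu_g_1_015428 had 0.68 ± 0.48 in males (adjusted p = 0.255), and its female value rests on a single read.

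**Figure D4:**
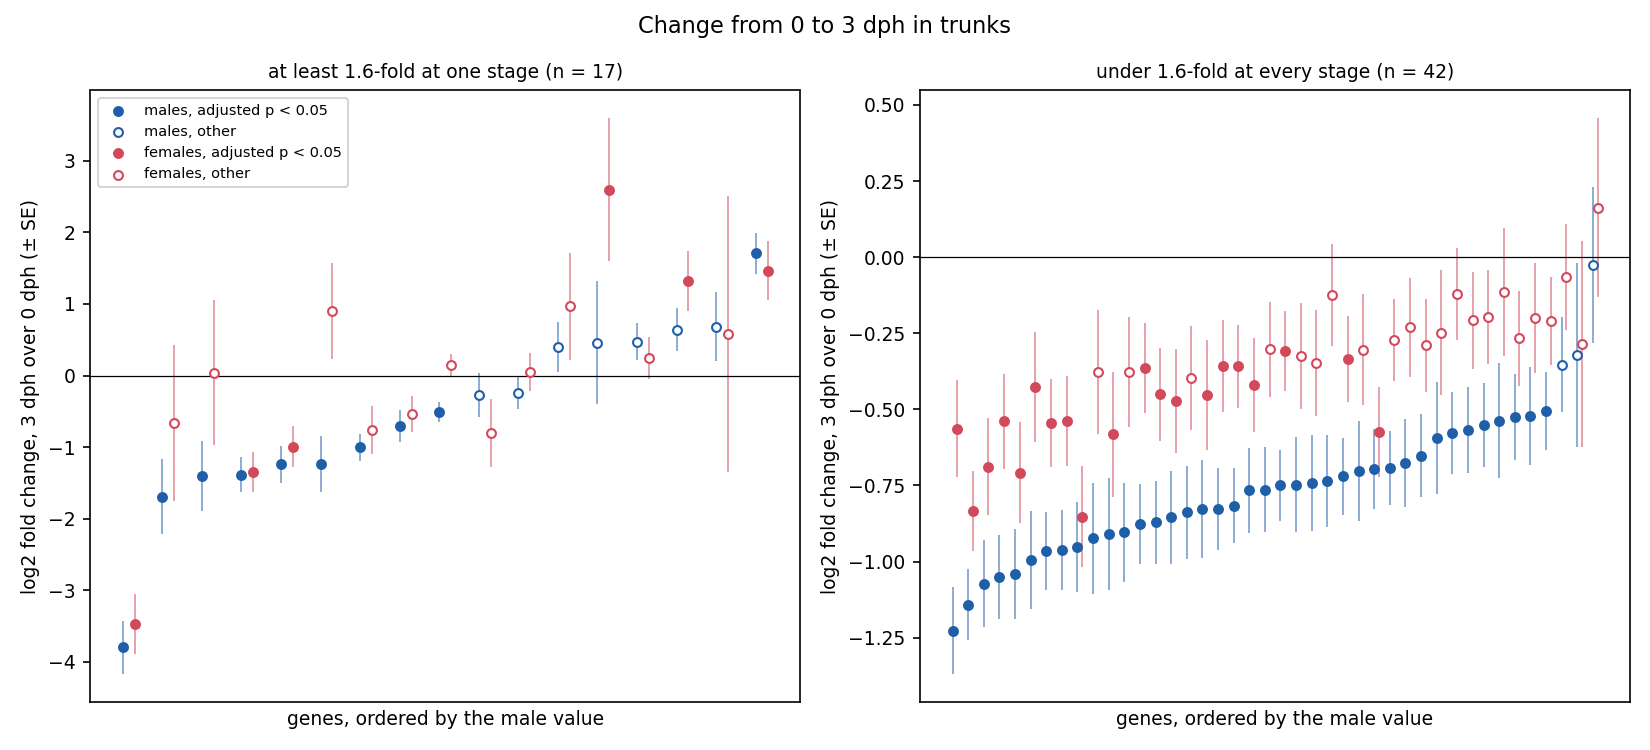
Log2 fold change, 3 dph over 0 dph, with its SE (DESeq2, 11 trunk libraries) for the 17 genes of the larger class (left) and the 42 of the smaller class (right), each ordered by the male value, with males in blue and females in red. Filled points have an adjusted p under 0.05, and the 2 vertical axes have different ranges. In the smaller class all 42 male values lie below 0 and 41 of 42 female values do, while values of the larger class run from -3.80 to 2.60.

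The male change less the female change is the sex-by-age interaction of the same fit, and it equals the sex gap at 3 dph less the sex gap at 0 dph. The rule used both gaps, so the interaction is given as a description and nothing is read from its calls. It was called by DESeq2 for 2 of the 59 genes, both negative, against 6.25% of all genes called in the negative and 2.48% in the positive direction. For *trmt11* it was -0.65 ± 0.21, with a male change of -0.51 ± 0.14 and a female change of 0.14 ± 0.16. For Nfu_g_1_003287 it was -0.66 ± 0.21. This gene had 1390.1, 1223 and 1093 CPM in males and 844 and 767 CPM in females at 0 dph, and 484, 485 and 529 CPM in males and 450, 442 and 476 CPM in females at 3 dph. Its sexes were thus closer together at 3 dph. The median interaction was -0.39 over the 59 genes and 0.03 over all genes, and the 59 share their libraries. Neither call held with edgeR's quasi-likelihood test, in which 0 of the 59 passed and 8 had an unadjusted p under 0.05, against 20 in DESeq2. Without female replicate 1 or 2 of 0 dph, male replicate 2 of 3 dph, or female replicate 1 or 3 of 3 dph, the count was 0. It was 1 without male replicate 1 of 0 dph, male replicate 1 of 3 dph or male replicate 3 of 3 dph, and 4 without female replicate 2 of 3 dph.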

How the data were processed

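Counts per gene were deposited by the authors without normalisation. Reads were filtered by quality and length (sga), aligned to the genome of the species by STAR under a limit on intron length, and counted by summarizeOverlaps of GenomicAlignments. Counting mode and use of strand are not given in the sources used here, so overlapping genes and copies in families (ribosomal proteins, both identifiers paired with CU570881.1) are uncertain. All 19 columns were matched to samples by label.

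CPM used library totals. Age and interaction were tested with DESeq2 (1.42.0, R 4.3.3) on group means of the 11 trunk libraries, genes with at least 1 count, Benjamini-Hochberg adjusted. Alternatives were edgeR (4.0.16), other scalings, filters, pseudocounts, a replicate block and leaving out each library.

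Symbols were read from the identifier columns of a shortened supplementary gene table (2671 identifiers with a symbol). No sequences are shown. The 59 genes and all lists were chosen with earlier results of these data known, and the size division and ribosomal list after seeing values. Named are genes with 3 counts or fewer in every early female library, the 6 widest smallest gaps, genes with a symbol of a known protein, the 3 lowest and 3 highest gonad ratios, 3 called genes per age test with the largest change, and genes at the limits of the rule. The sex contrast of the early stages was not tested and sex labels were not shuffled. Intervals are exact at 95% and cover counting error only, as the labels name no molecular identifiers.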

Additional observations from a re-analysis of the deposited data

Results flagged for a closer look

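The change from 0 to 3 dph differed between males and females in 2 of the 59 genes by the DESeq2 interaction test, both negative. Over all genes 6.25% were called in the negative and 2.48% in the positive direction. Both genes are given with their values. The interaction is the sex gap at 3 dph less that at 0 dph, both of which the rule used to choose the genes, so these calls are no independent result. For *trmt11* (Nfu_g_1_001742) the interaction was -0.65 ± 0.21 on the log2 scale. The call held in 3 of 15 alternative fits, and its estimate was negative in all of them. For Nfu_g_1_003287 the interaction was -0.66 ± 0.21 on that scale. The call held in 7 of 15 alternative fits, again with a negative estimate in all. No explanation was tested.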

How the results depend on the processing

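The number of genes male-higher at all 3 stages was 59 with library totals, 125 with median-of-ratios scaling and 98 with TMM scaling. Other floors gave 58 to 61, and leaving out 1 library gave 59 to 81. The median log2 ratio of testis to ovary turned to -0.17 with median-of-ratios scaling of the gonads and was 0.0912 with all 19 libraries scaled together, with 2 and 1 genes at least 2-fold higher in the ovary. With an added 2-fold threshold 13 of the 59 genes changed from 0 to 3 dph in males, 1 up and 12 down. In females 5 changed, 3 up and 2 down. Of all 22945 genes tested in males, 2821 rose and 2786 fell by this threshold. Of 22452 tested in females, 2333 rose and 2480 fell. An interaction was called for 0 of the 59, against 389 positive and 791 negative calls among 20974 genes. Leaving out 1 library gave 46 to 50 genes in males, 14 to 30 in females and 0 to 4 for the interaction. edgeR's quasi-likelihood test gave 49 genes in males, 20 in females and 0 for the interaction, where 8 of the 59 had an unadjusted p under 0.05.

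Equal replicate numbers did not pair the samples: 3 dph and 0 dph libraries of the same number correlated, in deviations from their group means, at -0.39, 0.01 and -0.06 in males and at -0.004 and -0.02 in females, and no male library of 3 dph correlated best with its own number. With the replicate number as a block in DESeq2, 48 genes changed in males, 18 in females and 0 had an interaction, with 8 at an unadjusted p under 0.05. For the named genes, 51 of 990 alternative values of the age tests and the interaction lost a call, 17 gained one, and the sign changed in 20, none of them called in the chosen fit. Of 130 sex ratios of the early stages, 37 moved by more than the replicate spread and 0 changed sign. The rule made these ratios positive and both other scalings raised them, so their sign could not change. Of 88 gonad ratios, which have no replicates, 62 moved by at least 0.1 log2 units and 6 changed sign, in 3 genes: *rpl5b*, *rps9* and Nfu_g_1_003287.

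Depth limits the lowest genes: Nfu_g_1_007401 at 10 dpf and Nfu_g_1_012184, Nfu_g_1_024771 and Nfu_g_1_015428 in females rest on few reads. The cause of the shifts was not tested.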
